A study of Mus musculus with 6 samples.

Results

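The 34 genes described here are known to be enriched in microglia, the resident macrophages of the brain. They were picked by gene symbol, with earlier results of these data known, from a table of 23361 gene symbols measured by RNA sequencing of whole hippocampus. Of the 34, 33 were listed under their own symbol, and Spi1 was listed under its older symbol Sfpi1. The study compared 3 wild-type (Tet1+/+) mice with 3 mice homozygous for a deletion of Tet1 exon 4 (Tet1Δe4-/-), called Tet1-deficient below. The Tet1 protein is an enzyme that oxidises methylated cytosine in DNA. Every mouse of both genotypes had received an electroconvulsive shock through the ears (18 mA, 100 Hz, pulses of 0.2 ms, 1.15 s in all), and hippocampi were frozen 1.5 to 2 hours later. No library of an unshocked mouse was analysed here, and the values give a genotype difference after a seizure, not the response to it. The tissue was not sorted, and the sources used here do not give strain, age, sex or the cells that lack Tet1. Replicate numbers only name the libraries and follow the order of the samples. Wild-type replicate 1 alone has the letter f in its title where the others have m. Wild-type replicate 3 alone has the letter b where the others have a. No label says what the letters mean.

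Microglia survey the tissue with motile processes, take up debris and synaptic material, and respond to injury. They enter the brain early in development, renew themselves there, and depend on signalling through the receptor Csf1r and on the transcription factors PU.1 (encoded by Spi1) and Irf8. Purine receptors let them sense nucleotides released by active or damaged neurons, and complement protein C1q, which in the brain comes mostly from microglia, tags synapses for removal.

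PU.1 binds purine-rich DNA around a GGAA core, so the bases upstream of the members were read for its older consensus, the PU box GAGGAA. RefSeq promoter windows (GRCm38.p6) were found for 25 of the 34 members, and the 250 bases before each start site were searched on both strands. GAGGAA was present for 17 of the 25 (68%), against 25.9% of the 27025 genes with a window. The longer strings gave fewer matches: AGGAAGT was found for 7 of 25 (28%, against 8.80% of all genes) and GAGGAAGT for 2 of 25 (8%, against 2.79%). The strings overlap each other, and GAGGAA is shown because it was the most frequent, a choice made after these counts and that of a further, longer string had been seen. A match is a description of the letters and does not show binding. The 4 upstream windows printed next were chosen because each holds a single PU box and no annotated exon, and because Cd68, P2ry13, Cd53 and Trem2 return in the results. Capitals mark the PU box, read 5′ to 3′ on the strand of the gene. It is TTCCTC in Trem2, where the box lies on the opposite strand. The windows are chr11:69666171-69666420 (minus strand) for Cd68, chr3:59210883-59211132 (minus) for P2ry13, chr3:106790150-106790399 (minus) for Cd53 and chr17:48346151-48346400 (plus) for Trem2.
Cd68: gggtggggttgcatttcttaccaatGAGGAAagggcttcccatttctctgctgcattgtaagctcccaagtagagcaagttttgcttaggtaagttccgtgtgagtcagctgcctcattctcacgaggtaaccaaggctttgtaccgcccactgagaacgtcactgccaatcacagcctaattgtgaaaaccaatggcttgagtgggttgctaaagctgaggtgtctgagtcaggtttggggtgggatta
P2ry13: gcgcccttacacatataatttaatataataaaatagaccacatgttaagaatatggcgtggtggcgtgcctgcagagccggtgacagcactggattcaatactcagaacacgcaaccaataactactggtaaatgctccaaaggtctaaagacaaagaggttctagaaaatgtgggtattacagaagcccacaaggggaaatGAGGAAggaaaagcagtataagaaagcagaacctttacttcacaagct
Cd53: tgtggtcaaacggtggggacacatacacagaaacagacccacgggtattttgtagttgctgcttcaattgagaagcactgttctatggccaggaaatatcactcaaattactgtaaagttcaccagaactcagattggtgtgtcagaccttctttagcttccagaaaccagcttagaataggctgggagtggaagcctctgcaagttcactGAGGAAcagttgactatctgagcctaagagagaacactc
Trem2: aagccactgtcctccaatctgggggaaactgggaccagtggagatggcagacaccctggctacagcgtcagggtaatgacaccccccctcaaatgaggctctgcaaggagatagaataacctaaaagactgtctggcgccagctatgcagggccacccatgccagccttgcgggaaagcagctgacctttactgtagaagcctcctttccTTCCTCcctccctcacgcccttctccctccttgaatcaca

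CpG dinucleotides, the substrate of DNA methylation, were sparse in most of these windows. At most 6 CpG were found in every window of 21 of the 25 members, against 51.4% of all genes. The others were Sall1 with up to 30, Tgfbr1 and Irf8 with up to 29 each, and Ly86 with up to 11. The limit of 6 lies at the median of all genes: the highest count per gene had a median of 5 in members and 6 in all genes. Methylation was not measured in these libraries. On mm10 the members lie on 14 chromosomes, and none lies on chromosome 10 with Tet1. The 3 C1q genes form a cluster of 18.7 kb on chromosome 4, P2ry13 and P2ry12 are neighbours 5.39 kb apart on chromosome 3, and Tmem119 and Selplg lie 18.0 kb apart on chromosome 5.

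Values are FPKM, fragments scaled to transcript length and to the mapped total of the library, which keep no record of read depth. Column sums ran from 371014 to 390042. Tet1 read 0.977, 0.718 and 0.897 FPKM in wild-type replicates 1 to 3 and 0.740, 0.685 and 0.638 in the Tet1-deficient ones. These gene-level values overlap and do not check the loss of a single exon. On the first principal component (54.4% of the variance over 12333 genes outside the lists used here), wild-type replicate 1 and Tet1-deficient replicate 1 stood apart from the other 4 libraries. That split crosses the genotypes. Fits with the split as a term are given for some of the genes it touches, not for all. P-values below come from the fit without the split unless another fit is named. The labels do not describe how the mice were bred or housed, and p-values measure the spread between these libraries.

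The members were a minor but clear part of the hippocampal RNA. Per length, the median member averaged 4.93 FPKM, against 158.9 for a list of 12 neuronal genes, 147.6 for 10 oligodendrocyte genes and 86.8 for 10 astrocyte genes. Of the 34, 11 averaged at least 10 FPKM and 22 between 1 and 10. Ptprc, which encodes the leukocyte phosphatase CD45, was the only member under 1 FPKM. No member was at 0 in any library. Summed over the 34 members, wild-type libraries 1 to 3 held 318, 294 and 306 FPKM, and Tet1-deficient libraries held 312, 305 and 289.6. The summed levels of the genotypes overlap. In bulk tissue, fewer microglia and less RNA per microglial cell cannot be told apart.

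**Figure D1:**
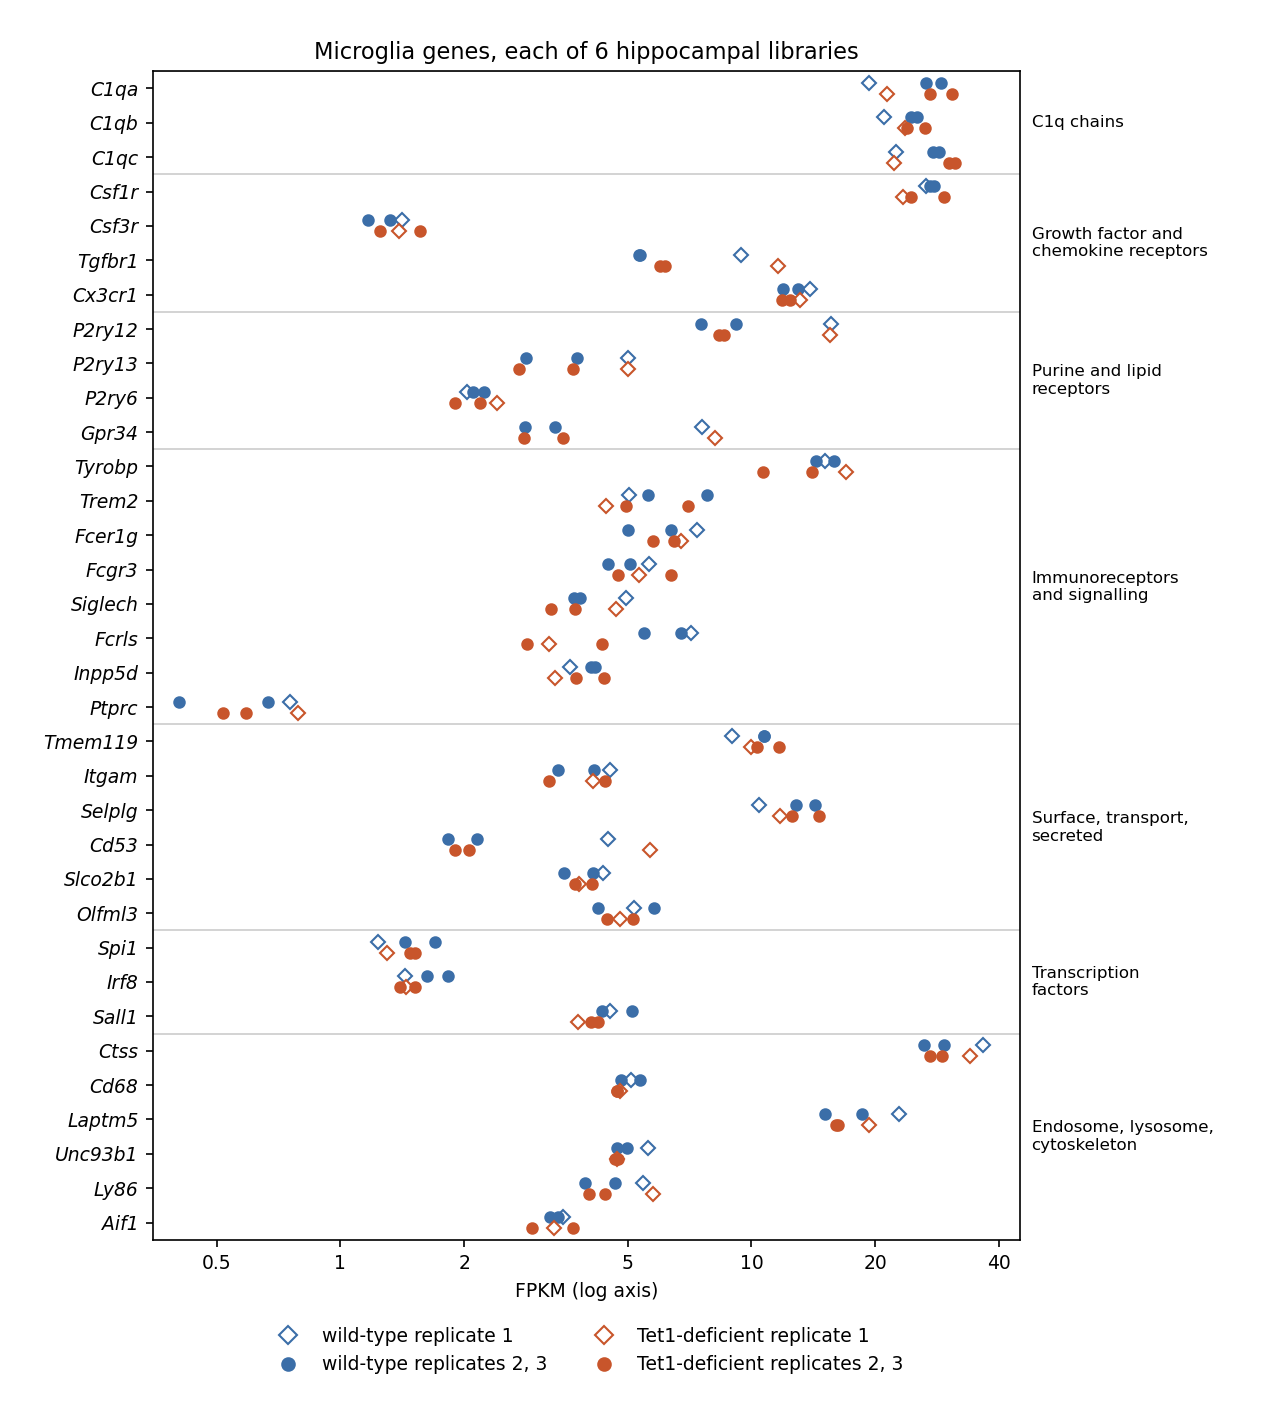
FPKM of each of the 34 microglia genes (rows, grouped by role) in each of the 6 hippocampal libraries on a log axis. Blue symbols are wild-type and orange Tet1-deficient, with open diamonds for the replicate 1 libraries, which for Gpr34, Cd53, P2ry12 and Tgfbr1 lie far above the other 4, while for Fcrls all blue symbols lie above all orange ones.

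The 33 members with a mean of at least 1 FPKM were tested with limma on log2(FPKM + 1) together with all 12533 genes that passed the same filter. Differences on this scale are Tet1-deficient minus wild-type and understate the change of genes near 1 FPKM. None of the 33 was called at an adjusted p under 0.05, the rule that called 4 of the 12533 genes (0.0319%). A single member, Fcrls, had an unadjusted p under 0.05, against 1.36% of all genes tested. By sign, 19 members were lower and 14 higher in the Tet1-deficient mice, or 57.6% lower against 47.1% of all genes. The median member differed by -0.024, beside a median of 0.0055 over all genes tested. Without Fcrls, the differences of the other 32 ran from -0.17 to 0.19, with unadjusted p from 0.118 upward. Their 95% intervals all spanned 0. For 24 members the whole interval lay within 0.5 of 0. The other 8 besides Fcrls (C1qa, Tyrobp, P2ry12, Tgfbr1, Trem2, Gpr34, P2ry13 and Cd53) had intervals that reached further. With the library split as a term, the interval lay within 0.5 for 32 of the 33.

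**Figure D2:**
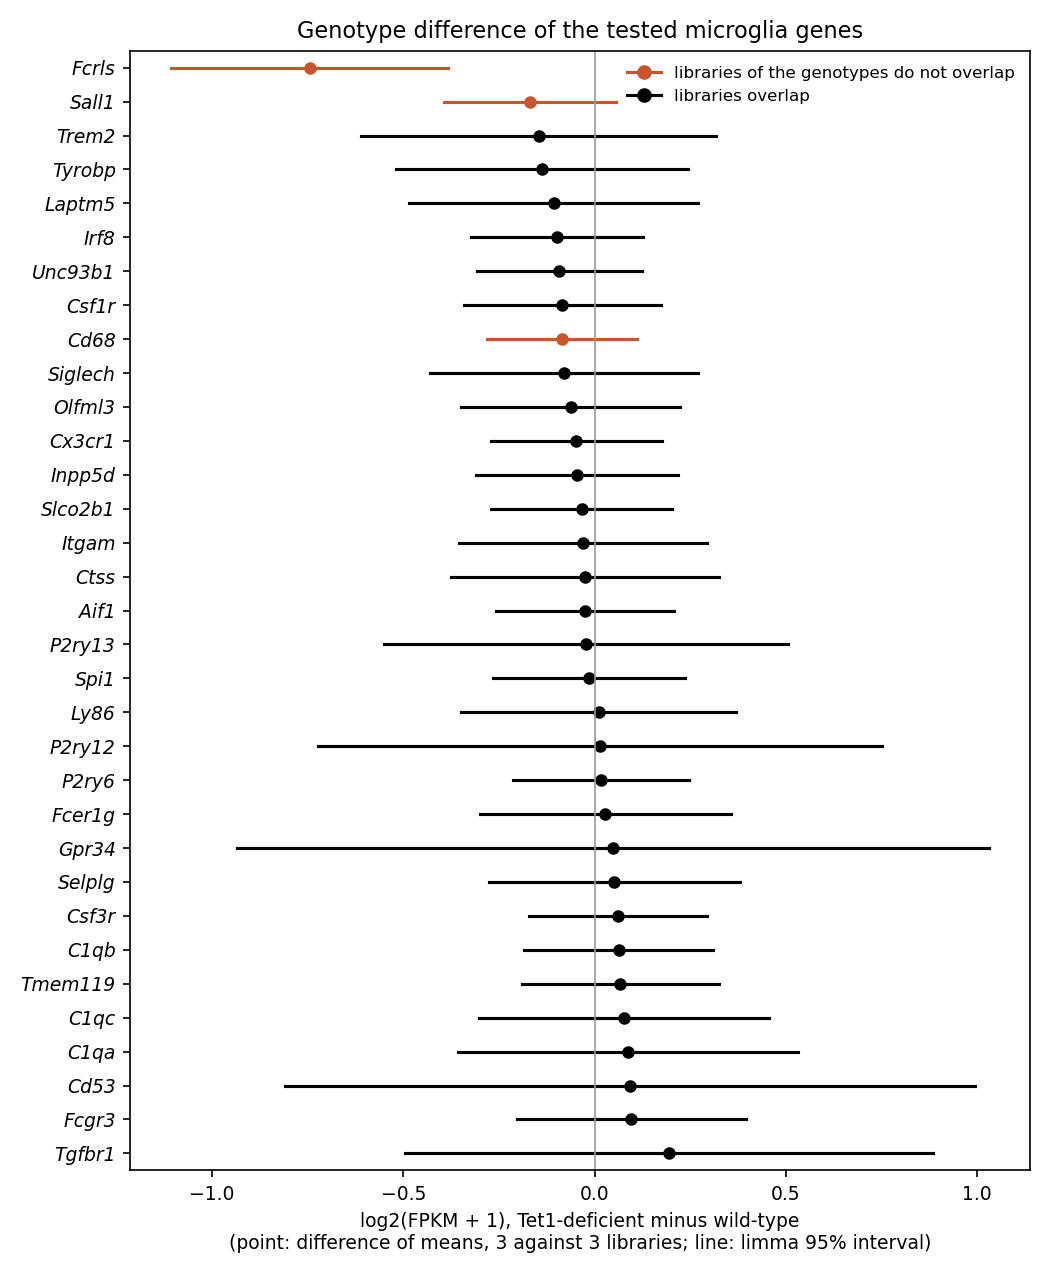
Difference in log2(FPKM + 1), Tet1-deficient minus wild-type, for the 33 tested microglia genes (points, 3 against 3 libraries), with limma's 95% intervals as lines. Fcrls at -0.74 is the only gene whose interval leaves out 0, and the widest intervals belong to Gpr34, Cd53 and P2ry12.

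Complement C1q is built from 3 chains encoded by C1qa, C1qb and C1qc, which were among the 5 highest members per length. C1qa read 19.3, 28.8 and 26.6 FPKM in wild-type libraries, against 21.4, 30.7 and 27.2 in Tet1-deficient replicates 1 to 3. C1qb read 21.01, 25.3 and 24.5 against 23.6, 26.4 and 23.9. C1qc read 22.4, 27.6 and 28.6 against 22.2, 31.2 and 30.1. The chains kept close to each other in each library, with the highest chain 1.10 to 1.26 times the lowest. Both replicate 1 libraries were lowest for C1qa, C1qb and C1qc, whereas the genotypes overlapped for each. The log2 differences were 0.09 for C1qa, 0.06 for C1qb and 0.08 for C1qc, with standard errors that exceeded each difference. With the split as a term the standard errors fell to 0.0626, 0.0575 and 0.0493, below each difference. The unadjusted p in limma was then 0.207, 0.311 and 0.170.

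Among the receptors for growth factors and chemokines, Csf1r, on which microglial survival depends, was among the highest members per length. It read 26.6, 27.2 and 27.8 FPKM in wild-type libraries, against 23.3, 29.5 and 24.4 in Tet1-deficient ones, a difference of -0.08. Its exons overlap those of Hmgxb3 on the opposite strand, and with no strand setting given the reads of the overlap cannot be assigned. Of its ligands, Il34 averaged 24.8 and 24.7 FPKM in wild-type and Tet1-deficient mice and Csf1 4.76 and 4.96 FPKM. Cx3cr1, the receptor for the neuronal chemokine fractalkine, read 13.9, 11.9 and 13.01 against 13.1, 11.9 and 12.4 (difference -0.05). Csf3r, the receptor for granulocyte colony-stimulating factor, was low, between 1.16 and 1.56 FPKM. Its level is uncertain, since the annotated transcript of AC105061.2 is 96.8% identical over 43.6% of its length. Tgfbr1, a receptor chain for transforming growth factor beta, read 9.45, 5.31 and 5.36 against 11.6, 5.98 and 6.16. It was high in both replicate 1 libraries, and within the 2 replicate 1 libraries as within the other 4 the Tet1-deficient values were above the wild-type ones. Its difference was 0.19 (95% interval -0.49 to 0.88). With the split as a term its standard error fell from 0.291 to 0.0531 and the unadjusted p was 0.0091, but the adjusted p in limma was 0.593. By that fit 2 members, Fcrls and Tgfbr1, had an unadjusted p under 0.05, beside 6.77% of all genes, and 0 were called (0.0638% of all genes).

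The receptors for purines and lipids varied more between libraries than between genotypes. P2ry12, the ADP receptor that draws microglial processes towards injury, read 15.6, 7.53 and 9.15 FPKM in wild-type libraries, against 15.6, 8.33 and 8.60 in Tet1-deficient ones. P2ry13, another ADP receptor, read 5.01, 2.83 and 3.77 against 4.99, 2.73 and 3.69. Gpr34, a receptor for lysophosphatidylserine, read 7.57, 2.81 and 3.32 against 8.17, 2.80 and 3.48. For all 3 genes both replicate 1 libraries were above the other 4, and the genotypes overlapped. The differences were 0.014 for P2ry12 (interval -0.72 to 0.75), -0.022 for P2ry13 and 0.05 for Gpr34 (interval -0.93 to 1.03). With the split as a term, the standard error fell from 0.310 to 0.0729 for P2ry12 and from 0.414 to 0.0879 for Gpr34. P2ry6, a UDP receptor linked to phagocytosis, lay between 1.90 and 2.41 FPKM with no such split. Exons of P2ry12 overlap those of Med12l on the opposite strand, and P2ry13 lies inside Med12l. The sources used here do not give the strand setting, so reads of the overlap cannot be told apart. Med12l itself ranged from 5.57 to 6.26 FPKM.

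Immunoreceptors and their signalling partners held the member with the largest difference. Fcrls encodes an Fc receptor-like scavenger receptor that, in the mouse brain, is used as a marker of microglia. It lies at chr3:87250758-87263738 on the minus strand (mm10) with 8 exons, and no other GENCODE transcript met 95% identity over 20% of its length. Fcrls read 7.12, 5.47 and 6.73 FPKM in wild-type replicates 1 to 3 and 3.21, 4.33 and 2.84 in the Tet1-deficient ones. All 3 wild-type libraries were above all 3 Tet1-deficient ones. The means were 6.44 ± 0.863 and 3.46 ± 0.775 FPKM (SD, n = 3), so the Tet1-deficient mean was 53.8% of the wild-type one. The log2 difference was -0.74 (SE 0.153, 95% interval -1.11 to -0.38). In limma its unadjusted p was 0.00188, behind 27 other genes, and its adjusted p was 0.841. The difference ran from -0.89 to -0.64 over 15 alternative settings, and its adjusted p in limma from 0.0398 to 1.00. The -0.89 came with a pseudocount of 0.1, which changes the scale. The next largest was -0.88, without Tet1-deficient replicate 2. The lowest adjusted p came from limma with library weights, where Fcrls was the only member called (difference -0.79) among 59 genes called (0.471%). In that fit the replicate 1 libraries weighed 0.178 (wild-type) and 0.176 (Tet1-deficient), and Tet1-deficient replicate 3 weighed 6.89. Without both replicate 1 libraries, the difference was -0.64 with an adjusted p in limma of 0.999, and none of the members was called there (0.104% of all genes).

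Markers of other cell types moved between the same libraries, and their part in the Fcrls difference was not tested. All 10 meningeal fibroblast markers and all 12 endothelial markers tested had lower means in Tet1-deficient mice, with median differences of -0.52 and -0.23. Their summed levels overlapped between genotypes. The fibroblast sum was 128.1, 62.9 and 123.6 FPKM in wild-type replicates 1 to 3 and 69.0, 83.8 and 60.6 in the Tet1-deficient ones. Within each genotype Fcrls ranked the libraries in the same order. Across genotypes the orders differed, since wild-type replicate 2 was below Tet1-deficient replicate 2 for the sum and above it for Fcrls. The endothelial sum was 114.4, 94.3 and 127.5 FPKM against 85.3, 128.7 and 79.7. It followed the order of Fcrls in Tet1-deficient libraries alone. Of 8 tested markers of pericytes and smooth muscle, 7 were lower. Among 12 neuronal genes, 8 were higher and 4 lower. Their sum ran from 4285 to 4496 FPKM in wild-type and from 4685 to 4816 in Tet1-deficient libraries, without overlap. The sum weighs the highest genes most, and Camk2a, the highest, averaged 1181 FPKM in wild-type and 1369 in Tet1-deficient libraries. The median difference of the 12 was 0.034, and Gad1 was lower in all 3 Tet1-deficient libraries. The choroid plexus sum was 303.2 FPKM in wild-type replicate 3 and 196.7 in Tet1-deficient replicate 2. It lay between 7.38 and 22.0 FPKM in the others. No marker of these lists was at 0 in every library. Markers of border-associated macrophages, the macrophages of meninges and vessels, were low, with a median of 0.72 FPKM over 10 genes, 1 of which was tested. Their sums ran from 4.91 to 10.4 FPKM in wild-type and from 4.25 to 6.77 in Tet1-deficient libraries. Mrc1, a defining marker of those macrophages, read 1.14, 0.517 and 1.13 against 0.677, 0.8002 and 0.505 FPKM. Its Tet1-deficient mean was 71.0% of the wild-type one. The same share was 55.1% for Cd163, 73.9% for Pf4, 77.8% for Stab1 and 96.1% for Lyve1. The libraries of the genotypes overlapped for each of these low genes, and the rest of the list was not read singly.

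The other receptors of this group did not separate the genotypes. Tyrobp, which encodes the adaptor DAP12 that passes on signals from Trem2 and Siglech, read 15.1, 14.4 and 15.9 FPKM in wild-type libraries, against 16.9, 10.6 and 14.02 in Tet1-deficient ones. Trem2, a lipid-sensing receptor, read 5.03, 5.60 and 7.80 against 4.43, 4.94 and 7.001. Replicate 3 was highest for Trem2 in each genotype, and the differences were -0.14 for Tyrobp and -0.15 for Trem2. Fcer1g, the common gamma chain of Fc receptors, lay between 5.001 and 7.37 FPKM, and Siglech, a sialic acid-binding lectin, between 3.25 and 4.95. Inpp5d, the phosphatase SHIP1 that dampens such signals, read 3.62, 4.07 and 4.17 against 3.32, 4.37 and 3.73. Fcgr3, a low-affinity receptor for immunoglobulin G, lay between 4.47 and 6.36 FPKM. Its transcript is 96.5% identical to that of Fcgr2b over 37.8% of its length, so the share of reads between them is uncertain. Ptprc read 0.755, 0.405 and 0.668 against 0.787, 0.588 and 0.519 FPKM. It lay under the filter, and its difference of 0.023 was taken from a limma fit over every gene above 0.

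Genes for surface, transport and secreted proteins overlapped between genotypes throughout. Tmem119, a membrane protein that in the brain marks microglia and not incoming monocytes, read 8.95, 10.7 and 10.7 FPKM in wild-type libraries, against 9.99, 11.7 and 10.3 in Tet1-deficient ones. Selplg, the ligand of P-selectin, read 10.4, 14.3 and 12.8 against 11.7, 14.6 and 12.5. Both replicate 1 libraries were lowest for Tmem119 and Selplg. Cd53, a tetraspanin of leukocytes, showed the opposite order, with 4.48, 1.83 and 2.15 against 5.67, 1.90 and 2.06 FPKM. Its interval of -0.81 to 1.00 was among the widest, and its standard error fell from 0.380 to 0.0896 with the split as a term. Itgam, which encodes the CD11b chain of complement receptor 3, lay between 3.22 and 4.53 FPKM. The annotated gene Gm49368 overlaps it on the same strand with 99.9% identity over 73.8% of the transcript, so its level is uncertain. Slco2b1, an organic anion transporter, lay between 3.51 and 4.36 FPKM, and Olfml3, a secreted protein, between 4.24 and 5.80.

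Of the transcription factors, Sall1, a zinc-finger factor that maintains microglial identity, was the only one that separated the genotypes. It read 4.52, 4.34 and 5.12 FPKM in wild-type libraries, against 3.79, 4.06 and 4.24 in Tet1-deficient ones. The highest Tet1-deficient library was just under the lowest wild-type one. The means were 4.66 ± 0.412 and 4.03 ± 0.225 FPKM (SD, n = 3), and the log2 difference was -0.17 (SE 0.0946, interval -0.39 to 0.06, unadjusted p in limma's fit across all genes 0.118). Spi1, the gene of PU.1, was low at 1.24, 1.44 and 1.703 against 1.30, 1.52 and 1.47 FPKM, a difference of -0.015. Irf8, which pairs with PU.1, read 1.44, 1.62 and 1.82 against 1.44, 1.52 and 1.40, a difference of -0.10.

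Members that work in endosomes, lysosomes and the cytoskeleton included the most abundant of all per length. Ctss, a lysosomal cysteine protease, read 36.7, 29.4 and 26.3 FPKM in wild-type libraries, against 34.1, 29.0 and 27.2 in Tet1-deficient ones. Laptm5, a lysosomal membrane protein, read 22.8, 15.1 and 18.6 against 19.4, 16.3 and 16.02. Both replicate 1 libraries were highest for Ctss and Laptm5, and the differences were -0.025 and -0.11. Cd68, a lysosomal glycoprotein common to macrophages, read 5.09, 5.36 and 4.82 FPKM in wild-type libraries, against 4.79, 4.71 and 4.72 in Tet1-deficient ones. It separated the genotypes by the narrow gap between wild-type replicate 3 and Tet1-deficient replicate 1. Its log2 difference was -0.08 (SE 0.0828, unadjusted p in limma's fit across all genes 0.343). Unc93b1, which carries Toll-like receptors to endosomes, lay between 4.66 and 5.60 FPKM. Ly86, the partner of the receptor Cd180, lay between 3.94 and 5.76, and Aif1, the actin-binding protein Iba1, between 2.93 and 3.68.

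Fcrls, Sall1 and Cd68 were thus the 3 of 33 tested members (9.09%) whose libraries did not overlap between genotypes, all 3 lower in Tet1-deficient mice. Among all genes tested, 4.13% did not overlap, 2.21% with Tet1-deficient libraries lower and 1.91% with them higher. In the 4 libraries other than both replicate 1 libraries, 7 members did not overlap (21.2%, against 31.3% of all genes). These were Fcrls, Tyrobp, Cd68, Irf8 and Sall1, lower, and C1qc and Tgfbr1, higher. The share lay under that of all genes.

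**Figure D3:**
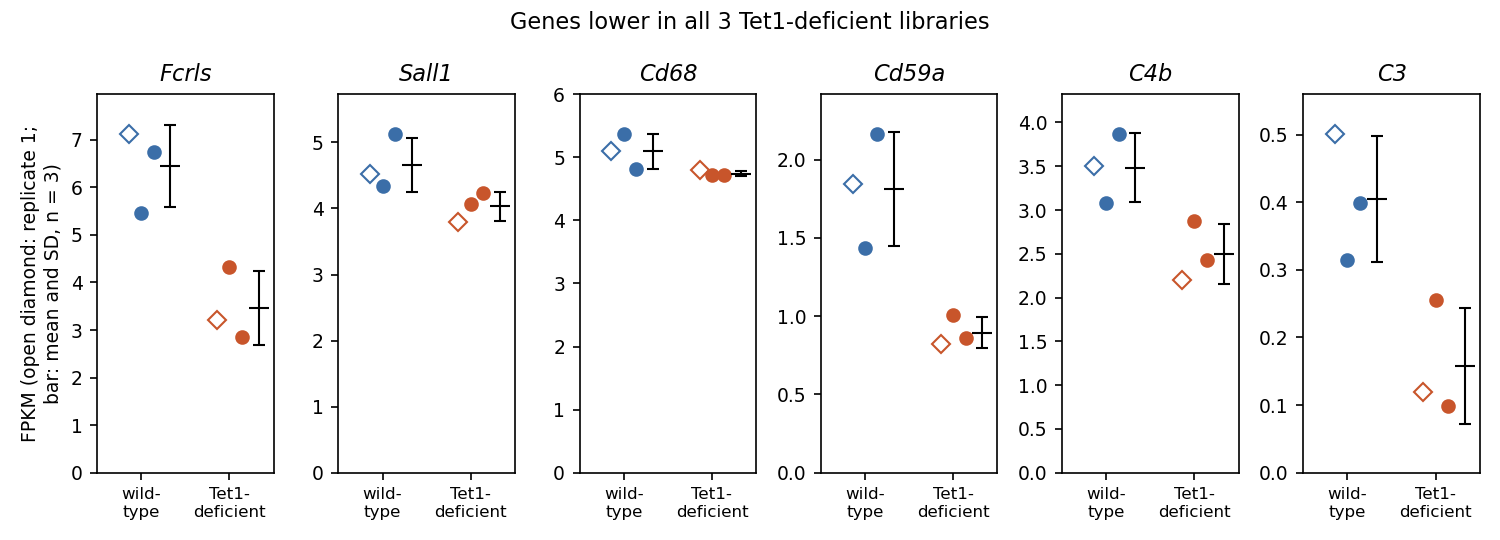
FPKM in each library for the 3 microglia genes whose genotypes do not overlap (Fcrls, Sall1 and Cd68) and for 3 complement genes (Cd59a, C4b and C3), on axes that start at 0. Points are libraries, open diamonds the replicate 1 libraries, and bars the mean and SD (n = 3); Fcrls averages 6.44 FPKM in wild-type and 3.46 in Tet1-deficient libraries, while for Cd68 the gap between genotypes is narrow.

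The replicate 1 libraries ordered a larger share of the members than the genotype did. Both lay above the other 4 libraries in 11 tested members (33.3%, against 28.5% of all genes): Cx3cr1, P2ry12, P2ry13, Ctss, Laptm5, Siglech, Gpr34, Cd53, Fcer1g, Ly86 and Tgfbr1. Both lay below in 7 (21.2%, against 35.0%): Tmem119, C1qa, C1qb, C1qc, Selplg, Spi1 and Inpp5d. The shift was measured as replicate 1 minus the mean of replicates 2 and 3 of its genotype on the log2 scale. Gpr34 shifted by 1.08 in wild-type and 1.15 in Tet1-deficient libraries, Cd53 by 0.88 and 1.16, P2ry12 by 0.84 and 0.81, and Tgfbr1 by 0.72 and 0.83. At the other end, C1qa shifted by -0.50 and -0.41 and Trem2 by -0.34 in each genotype. For Fcrls the shifts were 0.20 and -0.11. Shifts had the same sign in both genotypes for 26 of 33 members (78.8%), beside 83.7% of all genes.

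Base composition moved with this shift. GC content of the longest transcript ran from 37.1 to 56.0% in the 11 members above (median 45.4%) and from 53.6 to 59.5% in the 7 below (median 58.6%), with a median of 50.2% over all genes tested. Across the 33 members, which share the same 6 libraries, the correlation of GC content with the shift was -0.910 in wild-type and -0.852 in Tet1-deficient libraries. Over 12449 genes with GC content it was -0.566 and -0.624. After a trend on GC content and length was removed from each library, the shifts of Gpr34 were 0.54 and 0.44, those of Cd53 0.49 and 0.65, and those of P2ry12 0.34 and 0.19. C1qa then shifted by -0.14 and -0.13 and Trem2 by -0.027 and -0.10. The correlation of the shifts between the genotypes was 0.914 over members before the trend was removed and 0.674 after. Over all genes it was 0.636 before and 0.414 after.

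**Figure D4:**
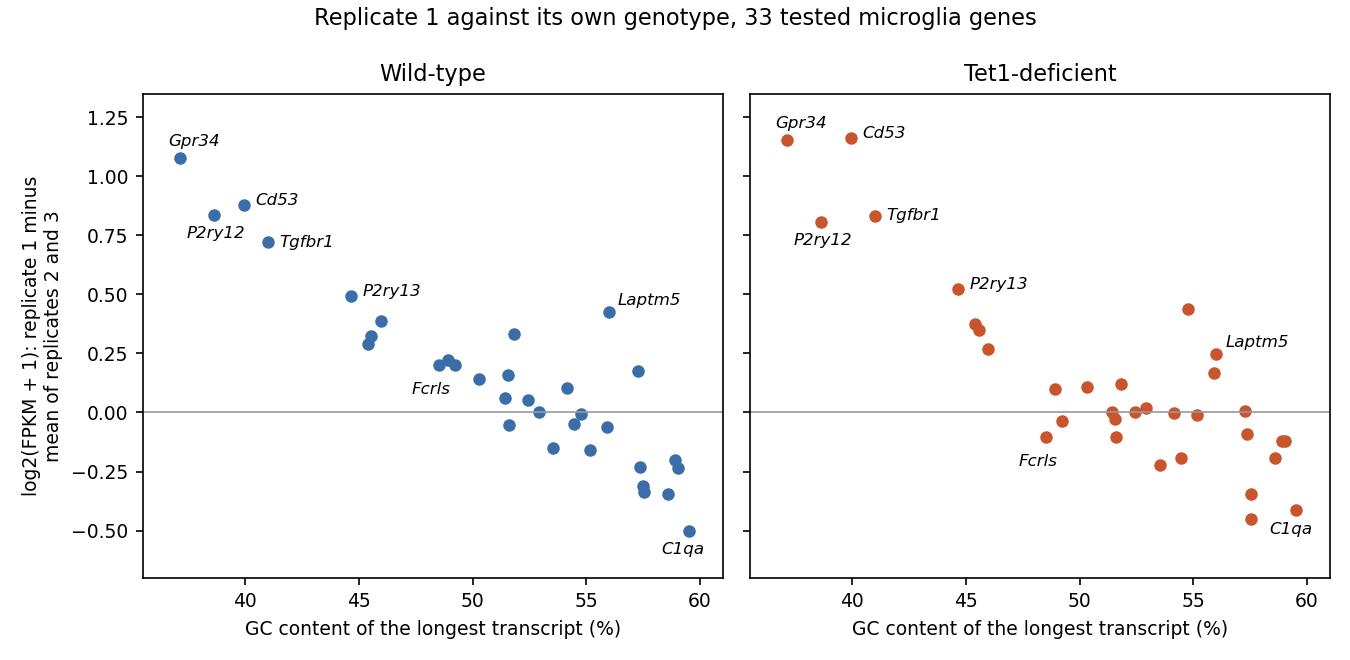
Shift of each replicate 1 library from the mean of replicates 2 and 3 of its genotype, in log2(FPKM + 1), against the GC content of the longest transcript (%) for the 33 tested microglia genes. Points are genes, in wild-type libraries at left and Tet1-deficient at right; genes of low GC content such as Gpr34 and Cd53 lie highest and C1qa, at 59.5% GC, lies at the low end in both.

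Other microglia-enriched genes and the partners of the members were read from lists of the same pathways. Of 45 further microglia-enriched genes, 30 were tested, 0 were called and 0 had an unadjusted p under 0.05. Of these, 11 were higher and 19 lower, with a median difference of -0.014. Mertk, a receptor for the uptake of dying cells, averaged 19.1 ± 2.33 and 19.4 ± 1.85 FPKM (SD, n = 3).

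Among ligands and partners of the receptors, 20 of 24 were tested, 8 higher and 12 lower, with a median of -0.011 and none called. Cx3cl1, the neuronal ligand of Cx3cr1, lay between 207.2 and 257.8 FPKM, and Apoe, a lipid carrier that Trem2 binds, between 999 and 1535. Both were lowest in the replicate 1 libraries. Tgfb1, a ligand of Tgfbr1, read 1.72, 1.73 and 2.101 against 1.58, 1.66 and 1.65 FPKM, and its genotypes did not overlap. The gap was narrow, and the log2 difference was -0.11 (SE 0.0943, unadjusted p in limma 0.278). It was 1 of the 20 tested genes of this list without overlap, beside 4.13% of all genes. Of the genes of ITAM and SHIP1 signalling, which act behind Tyrobp and Inpp5d, 9 of 22 were tested, 5 higher and 4 lower, with a median of 0.015. Of the endosomal Toll-like receptors and cathepsins, which act with Unc93b1 and Ctss, 16 of 21 were tested, 7 higher and 9 lower, with a median of -0.017. In the fit without the split, neither list held a gene with an unadjusted p under 0.05. Ctsz, of the cathepsins, was lowest in both replicate 1 libraries. With the split as a term its difference was -0.28, with an unadjusted p in limma of 0.0032 and an adjusted p of 0.447. In that fit 6.77% of all genes had an unadjusted p under 0.05.

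Complement beyond C1q was the list of partners with the lowest median. Of its 21 genes, 7 were tested, 2 higher and 5 lower, with a median of -0.32 and 2 at an unadjusted p under 0.05. Cd59a, an inhibitor of the membrane attack complex, read 1.84, 1.44 and 2.16 FPKM in wild-type libraries, against 0.823, 1.00 and 0.858 in Tet1-deficient ones. Its genotypes did not overlap, its Tet1-deficient mean was 49.4% of the wild-type one, and the log2 difference was -0.56 (SE 0.121, adjusted p in limma 0.989). C4b, a component of the classical pathway that C1q starts, read 3.50, 3.08 and 3.87 against 2.20, 2.87 and 2.43 FPKM. Its genotypes did not overlap either, and its difference was -0.36 (adjusted p in limma 1.00). C3, the central component, lay under the filter at 0.501, 0.315 and 0.398 against 0.119, 0.256 and 0.0990 FPKM. In the model of all genes above 0 its difference was -0.28 with an adjusted p in limma of 1.00. Serping1, a further regulator, was lowest in wild-type replicate 2 and Tet1-deficient replicate 3, as was the fibroblast sum: it read 4.49, 1.65 and 4.62 against 2.64, 2.83 and 1.73 FPKM. The part of other cell types in these differences was not tested.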

How the data were processed

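RNA of whole hippocampi from 6 mice was sequenced, 3 per genotype. The authors deposited gene-level FPKM values, made with TopHat2 2.0.9 and Cufflinks 2.1.1 on build mm10 per the submitters' processing notes. The sources used here do not give the annotation, strand setting or treatment of reads with several matches. FPKM scales by length and mapped total, so depth is unknown and no counting interval is given. Per the labels, 3 libraries carried the Tet1 deletion and 3 were wild-type; 0 columns stayed unmapped.

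Values were taken as log2(FPKM + 1). Genes whose mean reached 1 FPKM were fitted with limma 3.58.1 (R 4.3.3) (intensity trend, no covariates, two-sided) with Benjamini-Hochberg adjustment over 12533 genes and a threshold of 0.05. The script was tested on simulated data. The members and gene lists were chosen with earlier results of these data known. Every member is named. Of the other lists, the named genes come from up to 4 with the smallest unadjusted p and up to 4 with the highest mean. Csf1, Il34, Cx3cl1, Tgfb1, Apoe and Tet1 were added. C3, Med12l, Fcrl1 and Cd163 were added after their values were seen. Positions, GC content and length come from GENCODE (22997 symbols matched, 98.4%) and similar transcripts from BLAST+ 2.17.0. Promoter windows come from RefSeq. The trend on GC content and length was a spline with 5 degrees of freedom per term in each library. Alternatives covered the pseudocount (0.1), the filter, scaling, quantile normalization, the variance model, library weights and each library left out.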

Additional observations from a re-analysis of the deposited data

How the results depend on the processing

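The 3 settings on the libraries that stand apart and on GC content were chosen after seeing the data. The 4 genes called became 59 when libraries were weighted, 13 in 4 libraries alone, 8 with a term for the library split, 2 with the trend on GC content and length removed, and 0 to 6 with 1 library left out. The count of members called was 1 with library weights (Fcrls). The members' median was lowest, at -0.092, without wild-type replicate 2, and highest, at -0.0040, without wild-type replicate 1. Fcrls, Sall1, Cd68, Csf1r, Irf8, Unc93b1, Fcgr3 and Csf3r kept their sign under every setting run, and each of the other 25 tested members lost it under at least 1. With library weights the sign turned for Cx3cr1 (0.0011), P2ry13 (0.13), P2ry6 (-0.092), Tmem119 (-0.025), C1qa (-0.0096), C1qb (-0.034), Trem2 (0.080), Aif1 (0.077), Selplg (-0.088), Ly86 (-0.011), Slco2b1 (0.0097), Cx3cl1 (-0.014). It turned with the GC trend removed for P2ry12 (-0.083), Gpr34 (-0.078), Cd53 (-0.0022), Ly86 (-0.032). In 4 libraries alone it turned for P2ry6 (-0.059), Itgam (0.0097), Ctss (0.014), Cd53 (-0.0024), Ly86 (-0.019), Slco2b1 (0.029), Cx3cl1 (-0.0011). Quantile normalization turned Aif1 (0.0043), Spi1 (0.024), Cx3cl1 (-0.017), and median-of-ratios scaling turned Il34 (0.011). With 1 library left out, genes that turned at least once ranged as follows: Cx3cr1 -0.10 to 0.00067, P2ry12 -0.26 to 0.29, P2ry13 -0.20 to 0.15, P2ry6 -0.038 to 0.077, Tmem119 -0.011 to 0.11, C1qa -0.079 to 0.23, C1qb -0.014 to 0.11, C1qc -0.028 to 0.23, Tyrobp -0.28 to 0.028, Trem2 -0.31 to 0.014. Further ranges were Aif1 -0.086 to 0.039, Itgam -0.13 to 0.075, Ctss -0.13 to 0.10, Laptm5 -0.25 to 0.034, Siglech -0.20 to 0.028, Gpr34 -0.34 to 0.41, Selplg -0.063 to 0.14, Olfml3 -0.16 to 0.023, Cd53 -0.29 to 0.39, Spi1 -0.081 to 0.056. The last were Fcer1g -0.10 to 0.14, Ly86 -0.11 to 0.11, Tgfbr1 -0.083 to 0.44, Slco2b1 -0.11 to 0.019, Inpp5d -0.13 to 0.027, Csf1 -0.083 to 0.25, Il34 -0.044 to 0.033, Cx3cl1 -0.077 to 0.095, Apoe -0.11 to 0.26. The cause of these turns was not tested. No paired analysis was possible because the labels give the genotypes no shared replicate numbers. With 3 libraries per genotype and unknown depth, small differences of low genes cannot be resolved.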

Other observations

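Genes of the state that microglia take up near plaques and dying cells (disease-associated microglia) and inflammatory mediators were read as 2 further lists. Of 25 disease-associated genes, 16 were tested, 0 were called by limma and 0 had an unadjusted p under 0.05. Of these, 5 were higher and 11 lower in Tet1-deficient mice, with a median log2 difference of -0.029. Spp1, a secreted phosphoprotein, read 5.40, 2.44 and 9.86 FPKM in wild-type libraries, against 3.24, 5.01 and 1.98 in Tet1-deficient ones, and Lyz2, the lysozyme of macrophages and neutrophils, read 3.77, 2.35 and 8.93 against 3.20, 2.69 and 2.38. Wild-type replicate 3 was the highest for both. That library also held the neutrophil genes S100a8 and S100a9 at 20.1 and 22.7 FPKM, against at most 2.85 and 2.48 elsewhere, and both were listed at 0 in wild-type replicate 2. The part of blood cells in Lyz2 was not tested. Of 18 inflammatory mediators, 4 were tested, 3 higher and 1 lower, with 0 at an unadjusted p under 0.05. Il18, an interleukin made by microglia, read 13.1, 7.36 and 9.28 FPKM against 14.9, 10.4 and 12.4. Both replicate 1 libraries were above the other 4 for Il18. With the split as a term its difference was 0.34, with an unadjusted p in limma of 0.0179 and an adjusted p of 0.699. In that fit 6.77% of all genes had an unadjusted p under 0.05. Nfkbia, an inhibitor of NF-kappa B, read 14.6, 16.6 and 14.6 against 15.1, 20.02 and 17.2.

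Around Fcrls, 13 genes of the table lay within 500 kb, Fcrls included, and 6 were tested. All 6, Fcrls included, had log2 differences below 0, against 47.1% of all genes tested. Apart from Fcrls, these differences were small, from -0.17 for Etv3 to -0.029 for Lrba. Fcrls alone of the 6 had an unadjusted p under 0.05 in limma or genotypes that did not overlap. Fcrl1, a related gene singled out after its values were seen, lay far under the filter at 0.102, 0.142 and 0.122 FPKM against 0.0137, 0.0630 and 0.0111, and its genotypes did not overlap either.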
